A study of Mus musculus with 4 samples.

Results

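The genes described here are 10 genes by which inhibitory interneurons of the cortex are recognised, out of 46320 genes in the RNA-seq tables. They were taken by symbol, and all 10 were found once in each table. Gad1 and Gad2 encode the enzymes that make the transmitter GABA. Pvalb encodes the calcium-binding protein parvalbumin. Sst, Vip, Npy, Cck, Tac1, Crh and Penk encode the precursors of neuropeptides. RNA was taken from prefrontal cortex of females aged 14 weeks. Their strain is given as C57BL6J/Spretus, and all carried a mutation of the noncoding RNA Xist on the maternal allele. Every library used here has this genotype, and there is no animal without the mutation. There were 2 RNA libraries, and per the labels' protocols the RNA was isolated from tissue pooled over individuals of different litters. Library 1 held 4768237 and library 2 held 1291903 reads that could be assigned to the Spretus or the C57 allele. The labels do not tell whether the libraries are separate pools of animals, so a p-value here reflects library spread alone, which may be technical.

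Cortical interneurons fall into classes that differ in firing, in the part of the target neuron they contact and in the peptide they release. Parvalbumin cells contact cell bodies and axon starts, somatostatin cells contact dendrites, and many VIP cells contact other interneurons. In an F1 animal both parental copies of a gene lie in the same nucleus and meet the same transcription factors. A difference between the reads of the alleles is therefore a measure of a difference in cis, in the copy itself. The question put to these genes was whether the Spretus and C57 copies gave unequal numbers of reads. All 10 lie on autosomes, so none is on the X chromosome to which the Xist mutation applies. The strain label does not say which parent is the mother, and no reciprocal cross is labelled. Effects of strain and of parental origin therefore cannot be told apart.

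The 10 genes spanned a wide range of levels, from Cck at the top to Crh at the bottom. Levels are given as FPKM, by definition fragment counts normalised for transcript length and library size, which the authors computed for both alleles together. Despite that definition, the deposited FPKM values were on different scales in the libraries. The median ratio of library 1 to library 2 was 5.62 over 8970 genes of at least 1 FPKM in each. Levels are therefore compared between genes within a library. A difference between libraries is given after multiplying library 2 by that factor. In bulk tissue, fewer cells of a type and less RNA per cell cannot be told apart.

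Both GABA-synthesising enzymes were present, with Gad1 well above Gad2. Gad1 (ENSMUSG00000070880.9, mm10 chromosome 2, 70553072 to 70602014), whose product GAD67 makes most of the GABA of the brain, stood at 138 FPKM in library 1 and 21.0 FPKM in library 2. Gad2 (ENSMUSG00000026787.3, chromosome 2, 22622205 to 22693874), whose product GAD65 is found at nerve terminals, stood at 18.3 and 3.77 FPKM. The level of Gad1 was 7.54 times that of Gad2 in library 1 and 5.58 times in library 2. Gad1 exceeded 98.0% and 97.4% of the 20575 autosomal genes above 0 FPKM in both libraries. The GABAergic genes outside the 10 were also present. The vesicular GABA transporter gene Slc32a1 stood at 6.50 and 0.892 FPKM, and the interneuron transcription factor genes Dlx1 at 11.0 and 1.88, Lhx6 at 3.38 and 0.592 and Dlx2 at 0.928 and 0.132 FPKM.

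Of the genes that mark interneuron classes, Sst and Npy were higher than Pvalb, and Pvalb was higher than Vip, in each library. Sst (ENSMUSG00000004366.3, chromosome 16, 23889581 to 23890844), the somatostatin precursor gene, stood at 133 and 26.5 FPKM. Npy (ENSMUSG00000029819.6, chromosome 6, 49822710 to 49829507), the neuropeptide Y precursor gene, stood at 106 and 33.0 FPKM. Sst and Gad1 were close in both libraries, and Npy was below them in library 1 and above them in library 2, so the order of these 3 was not the same in each library. Pvalb (ENSMUSG00000005716.15, chromosome 15, 78191114 to 78206400) stood at 40.7 and 6.98 FPKM. Vip (ENSMUSG00000019772.4, chromosome 10, 5639218 to 5647614), which encodes vasoactive intestinal peptide, stood at 22.1 and 5.58 FPKM.

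Cck (ENSMUSG00000032532.6, chromosome 9, 121489825 to 121495689) had the highest level of the 10, at 403 FPKM in library 1 and 76.5 FPKM in library 2. Cholecystokinin is made by a class of cortical interneurons and also by excitatory neurons of the cortex, so its level is not that of interneurons alone. Penk (ENSMUSG00000045573.9, chromosome 4, 4133531 to 4138819), the proenkephalin gene, stood at 18.5 and 3.79 FPKM, next to Gad2. The remaining peptide genes were low. Tac1 (ENSMUSG00000061762.11, chromosome 6, 7554879 to 7565834), which encodes substance P and neurokinin A, stood at 5.26 and 1.00 FPKM. Crh (ENSMUSG00000049796.4, chromosome 3, 19693401 to 19695396), which encodes the stress peptide corticotropin-releasing hormone, stood at 2.87 and 0.552 FPKM and was the lowest of the 10 in each library. Penk and Tac1 are also made by projection neurons of the neighbouring striatum. Of 8 striatal markers, 6 had at least 1 FPKM in library 1 and 3 in library 2, none was at 0, and their summed level was 66.8 and 10.6 FPKM. The dopamine receptor genes Drd1 (1.77 and 0.310 FPKM) and Drd2 (0.476 and 0.104 FPKM) were among the lowest of them. Their part in the levels of Penk and Tac1 was not tested.

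**Figure D1:**
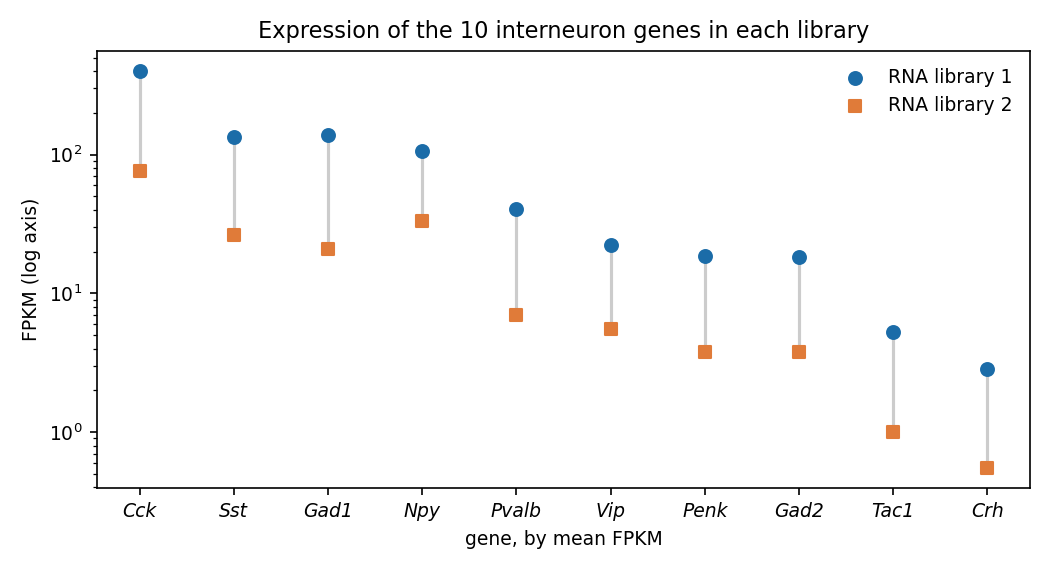
FPKM of each of the 10 genes (log axis) in RNA library 1 (circles) and RNA library 2 (squares), ordered by mean FPKM, with a line joining the libraries. Cck is highest at 403 and 76.5 FPKM and Crh lowest at 2.87 and 0.552 FPKM, and library 1 lies above library 2 for all 10 genes because the FPKM scales differ.

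With the scale factor removed, Npy and Vip differed most between the libraries, an order that changed with a pseudocount of 1 FPKM added before scaling. Scaled Npy was 1.75 times as high in library 2 as in library 1, and 2.88% of 8652 autosomal genes of at least 1 FPKM in each library had a higher ratio. Scaled Vip was 1.42 times as high in library 2, with 8.11% of genes above it. The other 8 genes lay between 0.854 for Gad1 and 1.15 for Penk and Gad2. With the pseudocount, Crh had the highest ratio at 1.77, against 1.08 without it. Tac1 and Npy followed at 1.41 each, and Gad1 had the lowest at 0.698. The pseudocount was added to unscaled FPKM and the factor taken anew. It therefore weighed more on library 2, whose FPKM were lower, and on genes of low level. For that reason it cannot decide whether the order holds. The same ratio was 0.581 for the summed oligodendrocyte markers, 0.440 for blood, 0.904 for astrocytes and 0.981 for excitatory neurons, so the libraries also differed in the markers of other cells. The part of these in the Npy and Vip ratios was not tested, and with 1 library on each side there is no replicate check.

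Sequence upstream of the genes is given from RefSeq (GRCm38.p6) for 3 of them, since a cis comparison concerns the copy of the gene and its control region. Sst was the gene whose Spretus share lay farthest from the autosomal median in summed reads, Cck had the highest level, and Vip is the marker of a class of its own. Each run is the C57BL/6J reference, 250 bases before the gene start, 5′ to 3′ on the gene's strand. Bases of the Spretus copy were not analysed here. Capitals mark the half-site TGACG of the cAMP response element, searched on both strands. The windows are chr16:23890845-23891094 on the minus strand for Sst, chr10:5638968-5639217 on the plus strand for Vip and chr9:121495695-121495944 on the minus strand for Cck.
Sst: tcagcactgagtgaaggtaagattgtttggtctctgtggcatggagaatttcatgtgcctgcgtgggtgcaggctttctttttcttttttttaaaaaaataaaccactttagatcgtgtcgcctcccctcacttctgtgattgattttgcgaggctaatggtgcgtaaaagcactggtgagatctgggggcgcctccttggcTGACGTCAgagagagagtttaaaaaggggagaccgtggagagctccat
Vip: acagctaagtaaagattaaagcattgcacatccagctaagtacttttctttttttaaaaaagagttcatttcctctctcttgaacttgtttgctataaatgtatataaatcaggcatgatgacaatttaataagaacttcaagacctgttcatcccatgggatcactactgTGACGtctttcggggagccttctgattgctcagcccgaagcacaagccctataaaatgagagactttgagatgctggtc
Cck: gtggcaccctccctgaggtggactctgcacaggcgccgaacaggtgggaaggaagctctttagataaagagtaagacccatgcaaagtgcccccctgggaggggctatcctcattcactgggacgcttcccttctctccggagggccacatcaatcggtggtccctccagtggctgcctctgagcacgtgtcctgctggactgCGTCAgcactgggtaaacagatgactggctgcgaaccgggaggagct

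The full element TGACGTCA, in which half-sites of the 2 strands overlap, was found for Sst alone among the 8 genes with a promoter entry. Crh and Penk had no entry, so whether they have the element was not examined. It occurred in 1.55% of 32851 promoter windows of the same length. CREB, the factor named for this element, is known from work on the somatostatin gene. At least 1 half-site was found for 5 of the 8 genes, namely Sst, Vip, Cck, Tac1 and Gad2, against 17.8% of all windows. Npy, Pvalb and Gad1 had none in these windows. The windows precede RefSeq starts, which are not always the locus starts given above. That of Gad1, at 70561879 to 70562128, and a Pvalb window at 78204238 to 78204487 lie inside the locus. Those of Tac1 and Gad2 run past the locus start. CG dinucleotides, the main sites of DNA methylation, numbered 8 in the Sst window, 3 in that of Vip, 9 in that of Cck and 21 in that of Npy. They numbered 17 for Tac1, 17 for Gad1, 13 for Gad2, and 4 and 23 in the 2 Pvalb windows. The median over all windows was 6. These matches describe the letters of the reference and are not evidence of binding.

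Allele-assigned reads did not follow the levels, so the precision of the allelic comparison differed widely among the 10 genes. Only reads that cover a base at which the alleles differ can be assigned. Gad1 had 1350 such reads over both libraries and Gad2 1043, while Sst, at a far higher FPKM than Gad2, had 132. Per FPKM, Gad2 gave 43.9 reads in library 1 and 62.9 in library 2, and Sst gave 0.677 and 1.58. FPKM is normalised for transcript length, so reads per FPKM also depend on that length. The part of length and of differing bases was not tested. Since the FPKM scales differ, these values compare genes within a library. Crh had the fewest, 36 in library 1 and 5 in library 2. The exact Clopper-Pearson 95% interval of the share in summed reads was 5.40 percentage points wide for Gad1, 17.1 for Sst and 24.6 for Tac1. Reads carry no molecular identifiers, so intervals cover counting error only. Of genes that overlap the 10, A830012C17Rik at Penk had 2 Spretus reads beside 3 from C57 in library 1 and none in library 2, and Gad1os at Gad1 had none in either library.

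Both alleles of all 10 interneuron genes gave reads, with shares on either side of the autosomal median. The median Spretus share over 9737 autosomal genes of at least 20 reads in each library was 48.0% in library 1 and 48.1% in library 2, with interquartile ranges of 44.7 to 51.1% and 43.2 to 52.6%. The median over the 10 genes was 48.0% in library 1 and 48.4% in library 2. Of the 10 genes, 3 lay above the autosomal median in both libraries (Cck, Penk and Gad1), 3 lay below it in both (Sst, Npy and Pvalb), and 4 lay on opposite sides. For 0 of the 10 was the interval clear of the median on the same side in both libraries. That held for 8.48% of the 9737 autosomal genes, to which Tac1 and Crh do not belong for lack of reads.

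**Figure D2:**
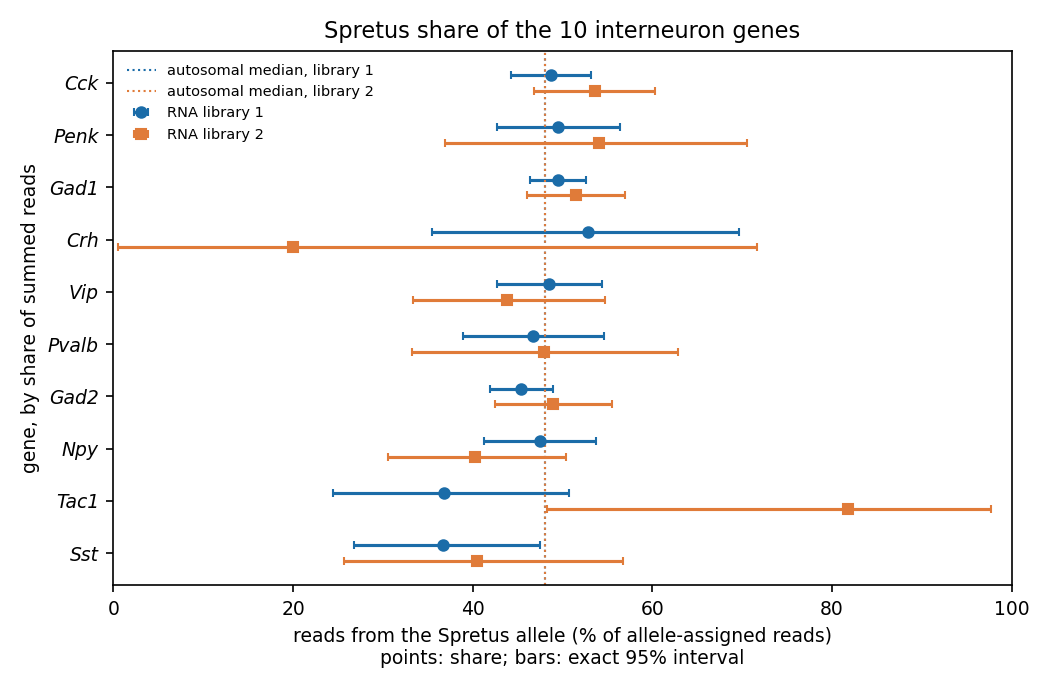
Share of reads from the Spretus allele in percent of allele-assigned reads for each of the 10 genes, with exact 95% intervals, in RNA library 1 (circles) and RNA library 2 (squares); dotted lines mark the autosomal median share of each library. Intervals of 8 genes hold the median in both libraries, and those of Sst in library 1 and Tac1 in library 2 do not.

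The GABA enzymes had the narrowest intervals. Gad1 had 500 Spretus reads beside 510 from C57 in library 1, and 175 beside 165 in library 2, shares of 49.5% (46.4 to 52.6%) and 51.5% (46.0 to 56.9%). Its mean share was 50.5% ± 1.39 (SD, n = 2). Gad2 had 366 Spretus and 440 C57 reads in library 1, a share of 45.4% (41.9 to 48.9%), and 116 and 121 reads in library 2, a share of 48.9% (42.4 to 55.5%). The autosomal median lay inside all 4 of these intervals. In summed reads, the interval of Gad1 ran from 47.3 to 52.7% and that of Gad2 from 43.2 to 49.3%.

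Sst had the lowest share in summed reads. It had 33 Spretus and 57 C57 reads in library 1, a share of 36.7% (26.8 to 47.5%), and 17 and 25 reads in library 2, a share of 40.5% (25.6 to 56.7%). Both libraries lay on the C57 side, and the interval of library 1 ended below its median of 48.0% while that of library 2 held it. The mean share was 38.6% ± 2.69 (SD, n = 2). With the reads of both libraries summed, 50 Spretus and 82 C57, the share was 37.9% (29.6 to 46.7%), 10.2 percentage points below the autosomal median. An interval of summed reads clear of the median on either side was found for 31.2% of the 9737 autosomal genes, so 1 of 10 genes is not above the background. Library 1 alone put 26.1% of the autosomal genes clear of its median.

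The intervals of Pvalb, Vip, Npy and Cck held the median in both libraries. Pvalb had 77 Spretus reads beside 88 from C57 in library 1, and 23 beside 25 in library 2, a share of 47.3% ± 0.884 (SD, n = 2), the smallest spread of the 10. Vip had 143 and 152 reads in library 1 and 39 and 50 in library 2, shares of 48.5% (42.6 to 54.3%) and 43.8% (33.3 to 54.7%). Npy had 123 Spretus and 136 C57 reads in library 1, a share of 47.5% (41.3 to 53.8%). In library 2 it had 41 and 61, a share of 40.2% (30.6 to 50.4%), so its deviation toward C57 was small in the deeper library and larger in the shallower one. Cck leaned slightly the other way, with 244 Spretus reads beside 257 from C57 in library 1, 120 beside 104 in library 2, and a mean share of 51.1% ± 3.44 (SD, n = 2).

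Among the peptide genes of lower level, no difference between the alleles of Penk was detected, and Tac1 and Crh were limited by depth. Penk had 106 Spretus reads beside 108 from C57 in library 1, and 20 beside 17 in library 2, a mean share of 51.8% ± 3.20 (SD, n = 2). The interval of its 37 reads in library 2 ran from 36.9 to 70.5%. Tac1 had 21 Spretus and 36 C57 reads in library 1, a share of 36.8% (24.4 to 50.7%), but 9 and 2 reads in library 2, a share of 81.8% (48.2 to 97.7%). Library 2 alone put 12.4% of the autosomal genes clear of its median. The libraries of Tac1 thus pointed in opposite directions, and its share had an SD of 31.8 percentage points, the largest of the 10. Crh had 19 Spretus reads beside 17 from C57 in library 1, and 1 beside 4 in library 2. Its share was 52.8% (35.5 to 69.6%) in library 1, and the interval of the 5 reads of library 2 ran from 0.505 to 71.6%. A difference in either gene was not detectable at this depth unless it was large.

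Across all genes, the alleles were compared with edgeR's quasi-likelihood test on the allele-assigned counts. It was fitted to the 11981 genes of at least 10 reads in each library, with Benjamini-Hochberg adjustment over all of them and a threshold of 0.05. Of the 10 genes, 9 were tested and Crh was not. The test called 0 of the 9, where it called 5.43% of the 11584 autosomal genes tested. At an unadjusted p under 0.05 it also gave 0 of 9, against 15.4% of autosomal genes. DESeq2 called 0 of the 9, against 2.2% of autosomal genes, and 0 at an unadjusted p under 0.05. With a block for the library, since both alleles come from the same RNA, edgeR's test called 0 of the 9, against 22.5% of autosomal genes. Unadjusted, 1 of the 9, Sst, had a p under 0.05 with the block, against 32.5%.

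Sst had the log2 ratio of Spretus over C57 farthest from 0 among the 9 tested genes. Without the library block, the ratios of the other 8 were smaller than their standard errors. The SE of an edgeR ratio was the absolute ratio divided by the square root of the test's F statistic. Setting a ratio against its SE therefore restates the test and is not a separate measure. Sst had a ratio of -0.59 (SE 0.40, adjusted p = 0.525 in edgeR's quasi-likelihood test). With the library block the ratio was -0.58 (SE 0.23, adjusted p = 0.0786), still short of the threshold. Without the block, the other 8 ranged from -0.22 for Npy (SE 0.27) to 0.20 for Cck (SE 0.30). Their adjusted p in edgeR's quasi-likelihood test ran from 0.802 for Npy to 0.970 for Pvalb. Gad1 stood at 0.16 (SE 0.23) and Gad2 at -0.05 (SE 0.19). With the block, standard errors were smaller, and Gad1 (0.13, SE 0.067), Cck (0.14, SE 0.094) and Gad2 (-0.087, SE 0.078) exceeded theirs. Their edgeR adjusted p with the block was 0.231, 0.365 and 0.533, and the rest of the 8 stayed within their standard errors. The median of the 9 ratios was -0.05, beside 0.02 over all autosomal genes tested. A p above the threshold does not show that the alleles are equal.

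**Figure D3:**
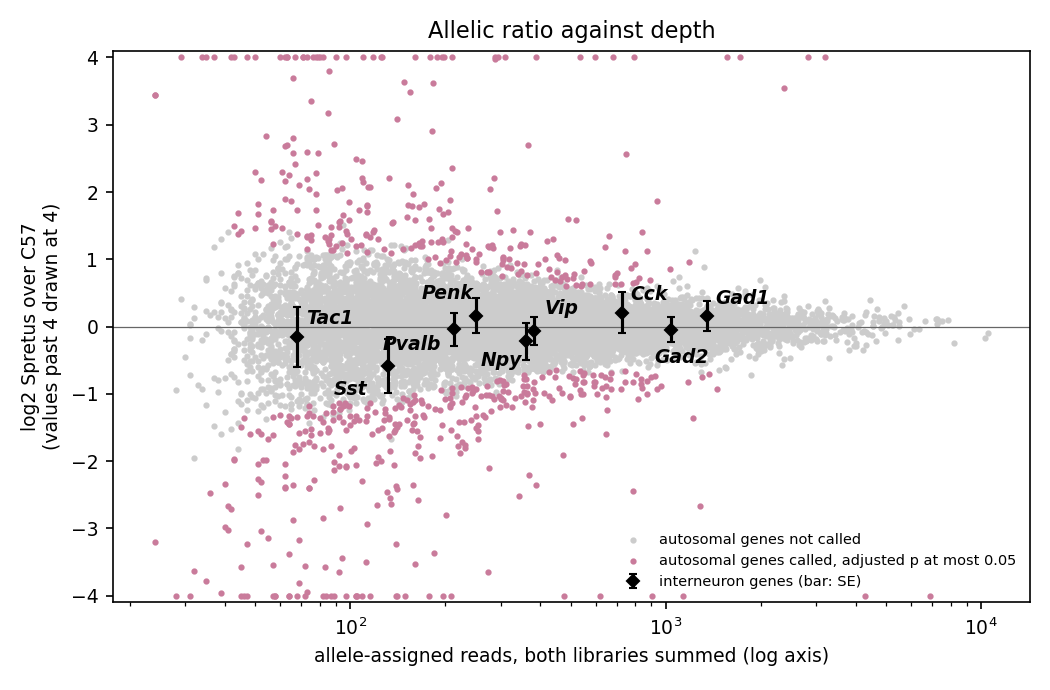
Log2 ratio of Spretus over C57 against the allele-assigned reads of both libraries (log axis) for autosomal genes not called (grey) and called (pink) by edgeR's quasi-likelihood test, with 9 interneuron genes as diamonds with SE bars. Sst lies lowest of the 9 at -0.59, and all 9 lie among the genes that were not called. Ratios, SE and calls are from the fit without the library block.

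Other genes of the interneuron and neuropeptide pathways were taken from 6 lists with 81 genes, of which 55 had enough reads to be tested. Of these 55, edgeR's quasi-likelihood test called 3, with 2 toward Spretus and 1 toward C57, which is close to the 5.43% of autosomal genes called. The genes of GABA transport and breakdown had 0 calls of 5, the interneuron transcription factors 0 of 8 and the peptide-processing enzymes 0 of 6. Among the other interneuron markers 1 of 17 was called, among the neuropeptide receptors 1 of 10 and among the other neuropeptides and granins 1 of 9. The library block called 8 of the 55, against its 22.5% of autosomal genes. DESeq2 called 0 of the 55, against 2.2% of autosomal genes.

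Adarb2, an RNA-editing enzyme family gene used as a marker of interneurons from the caudal ganglionic eminence, leaned to Spretus. It had 294 Spretus reads beside 175 from C57 in library 1, and 73 beside 37 in library 2, a share of 64.5% ± 2.60 (SD, n = 2). Its log2 ratio was 0.95 (SE 0.17, adjusted p = 0.0027 in edgeR's quasi-likelihood test). DESeq2 did not call Adarb2 (adjusted p = 0.0568). Vip marks cells of the same origin, and its own ratio was -0.06 (SE 0.20). Reln, a secreted protein gene of interneurons, and the cannabinoid receptor gene Cnr1 of CCK interneurons were called toward Spretus with the library block alone, at 0.30 and 0.18 on the log2 scale (edgeR adjusted p = 4.78e-04 and 0.0496).

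Oprd1, the delta opioid receptor gene whose ligands are the enkephalins made from Penk, leaned to C57. It had 105 Spretus reads beside 216 from C57 in library 1, and 18 beside 47 in library 2. Its log2 ratio was -0.99 (SE 0.22, adjusted p = 0.0121 in edgeR's quasi-likelihood test). DESeq2 did not call Oprd1 (adjusted p = 0.126). Penk itself stood at 0.16 (SE 0.27). Npy1r, a receptor gene for neuropeptide Y, had 179 Spretus reads beside 131 from C57 in library 1, and 66 beside 54 in library 2. It was called toward Spretus with the library block (log2 ratio 0.53, SE 0.12, edgeR adjusted p = 0.0011) and not without it (adjusted p = 0.331). Its ligand gene Npy stood at -0.22 without the block and -0.14 with it. Whether receptor and ligand genes differ in their ratios was not tested.

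Pnoc, which encodes the opioid-like peptide nociceptin, rested on few reads, 23 from Spretus beside 11 from C57 in library 1, and 8 beside 2 in library 2. Its log2 ratio was 1.38 (SE 0.38, adjusted p = 0.0472 in edgeR's quasi-likelihood test). The call was lost in edgeR with 1 library total for both alleles (adjusted p = 0.0748) and with no filter on low counts (adjusted p = 0.0771). It was also lost with DESeq2 (adjusted p = 0.693). Of the prohormone convertase genes that cut peptide precursors, Pcsk1 (-0.53) and Pcsk2 (-0.15) were called toward C57 with the library block alone (edgeR adjusted p = 0.00302 and 0.0259). The locus of Pcsk2 overlaps Pcsk2os1, which had 11 Spretus and 44 C57 reads in library 1. Since counting is not stated to use strand, their reads cannot be told apart. Among the genes without a call, the peptide-processing gene Cpe, the highest of its list at 484 and 76.2 FPKM, stood at -0.01.

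**Figure D4:**
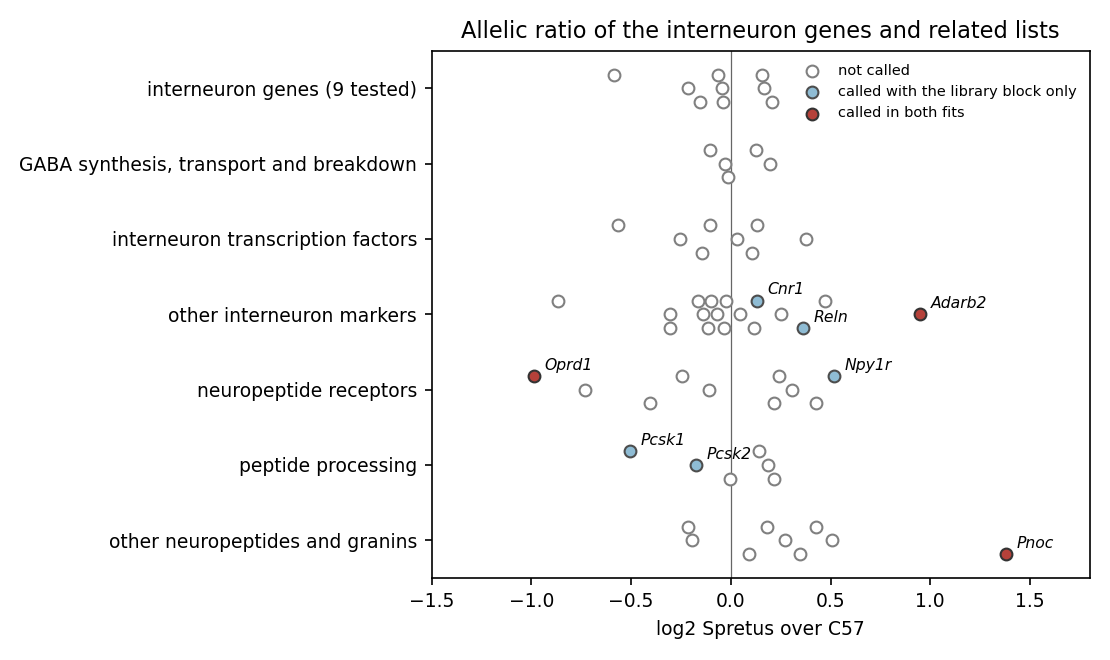
Log2 ratio of Spretus over C57 of the 9 tested interneuron genes (top row) and of the tested genes of 6 related lists, 1 point per gene; red points were called by edgeR's quasi-likelihood test with and without the library block, blue points with the block alone. Adarb2 (0.95), Pnoc (1.38) and Oprd1 (-0.99) are the red points, and the top row holds no filled point.

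No listed region of allelic methylation difference lay within 10 kb of the 10 genes. The authors' deposited table of such regions gives the methylation level of each allele, from 0 to 1, in 1600 regions with levels, 1006 of them on autosomes. Nothing is known of the level elsewhere. Within 10 kb of the gene lay a region for 0 of the 10, where 4.15% of 11584 autosomal genes had one. Sst was the closest, with a region of 15 bp at 23947852 to 23947867 on chromosome 16 that has levels of 0.0364 on Spretus and 0.947 on C57 in the authors' deposited table, 57.008 kb from the gene. Gad1 followed, at 63.8 kb from a region of 33 bp with levels of 0 on Spretus and 0.979 on C57 in the authors' deposited table. The nearest regions of the other 8 genes were 182 kb to 2547 kb away. The median distance was 614 kb for the 10 genes and 643 kb for the autosomal genes tested.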

How the data were processed

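The libraries were stranded and depleted of ribosomal RNA, per the labels' protocols. HTSeq 0.6.0, bedtools 2.2.4, Cufflinks 2.1.1, TopHat2 2.0.9 and the build mm10 appear in the submitters' processing notes, with no roles. The allele assignment, the annotation and any use of strand in counting were not given in the sources used here. Shares were set against the autosomal median because the alignment of Spretus reads may differ from that of C57 reads. Per the file headers, the authors deposited raw counts of reads per allele and 1 FPKM per gene, and methylation levels per region as fractions, whose coverage is unknown.

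Of 46320 identifiers, 49 stood at several loci with the same counts and were used once. Allelic ratios came from edgeR 4.0.16 in R 4.3.3, with TMM scaling and allele as the only term, and DESeq2 1.42.0 was an alternative. The edgeR fit without the library block was tested on simulated data. There the counts of each allele and library were drawn independently, so that test does not bear on alleles paired by library. The alleles of a library share their RNA, so the library pairs them by design. Over 7773 genes their deviations had a correlation of 0.569. The edgeR fit with allele as the only term and the DESeq2 fit left this pairing out, and the library block took it in. Intervals used scipy 1.17.1. Gene starts are counted from 1. The named genes were the 10 genes and, from the related lists, those called and the levels given. The 10 genes and all lists were chosen with earlier results of these data known. Alternatives were the library block, other scalings, DESeq2, no filter, each library alone, other reference shares and interval levels, other FPKM scalings and other distances.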

Additional observations from a re-analysis of the deposited data

How the results depend on the processing

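For the 10 interneuron genes, the count of 0 called was the same under the library block, DESeq2 size factors, a shared library total, DESeq2 and no filter on low counts. Of 45 log2 ratios of the 9 tested genes under these alternatives, 44 kept their direction. The exception was Tac1, at 0.26 with DESeq2 against -0.15. In 1 library alone, where no test is left and no count of calls was made, 15 of 18 ratios kept their direction, the exceptions being Vip at 0.03 in library 1, Gad2 at 0.05 in library 2 and Tac1. Tac1 stood at 2.02 without library 1 and -0.65 without library 2. A shared library total moved the autosomal median ratio to -0.11, against 0.02, and the share of calls toward C57 to 69.7%, against 56.0%. Crh entered the fit without a filter, at 0.02 (SE 0.51).

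Autosomal calls numbered 629, and 2603 with the library block, 255 with DESeq2 and 1290 with no filter. Calls in the related lists numbered 3, and 8 with the block and 0 with DESeq2. Genes with an interval clear of the autosomal median numbered 0 in both libraries and 1 in either library alone (Sst in library 1, Tac1 in library 2). Summing the reads, an alternative chosen after seeing the data, gave 1, Sst. Other reference shares and a 99% interval gave 0. Within 100 kb, 2 of the 10 genes had a listed methylation region, Sst and Gad1, against 13.6% of autosomal genes, and within 2 kb 0, against 3.15%. With a pseudocount of 1 FPKM, the scaled library ratio was 1.41 for Npy and 1.26 for Vip, but 1.77 for Crh, 1.41 for Tac1 and 0.698 for Gad1. The direction turned for Sst (0.908, against 1.12) and Cck (0.848, against 1.07). Added to unscaled FPKM with the factor taken anew, the pseudocount itself raises the ratios of low genes and lowers those of high ones. These turns therefore do not bear on the genes. Depth limited Crh, Tac1 and Sst most.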

Other observations

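Autosomal genes within 500 kb of the 10 genes, of at least 20 reads in each library, numbered 1 beside Sst and Vip and up to 11 beside Pvalb and Cck. Penk had a Spretus share of 50.2% in summed reads, against 56.6% and 58.4% for its neighbours. Crh stood at 48.8% of 41 reads, against a median of 39.3% for its 6 neighbours, which ran from 26.6 to 48.9%. Sst stood at 37.9%, against 43.9% for its neighbour. Of these neighbours, edgeR's quasi-likelihood test called 2 of 6 beside Crh, 2 of 11 beside Cck and 1 of 4 beside Gad1, and 0 beside the other 7 genes, against 5.43% of autosomal genes. These are few genes, and neighbours share a region. With the library block the number called ran from 0 beside Sst, Tac1 and Gad2 to 6 of 11 beside Cck, with 1 of 2 beside Penk, against 22.5% of autosomal genes. Both autosomal percentages are over genes of at least 10 reads in each library, a lower minimum than that of the neighbours. They are therefore not a like background.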
